A study of Mus musculus with 8 samples.

Results

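Markers of T cells and natural killer (NK) cells were followed as 10 genes in the livers of 8 mice, out of 52636 genes counted in each liver. The genes were chosen by symbol and matched to their Ensembl identifiers and positions in GENCODE M21 (GRCm38): the CD3 chains Cd3d, Cd3e and Cd3g, the co-receptor genes Cd4, Cd8a and Cd8b1, the cytotoxic granule genes Nkg7, Gzma and Gzmb, and the NK cell receptor gene Klrb1c. All 10 were matched and all 10 passed the filter on low counts, as did 15248 genes in all. The mice were wild-type male C57BL/6J animals, injected at 7 weeks of age with an adeno-associated virus (AAV8) carrying either GFP (AAV8-GFP, 4 mice) or human AGXT (AAV8-AGXT, 4 mice). Both transgenes were under the TBG promoter, which is active in hepatocytes, so neither virus was built to act in lymphocytes. All 8 mice received the high-fat, high-cholesterol, high-fructose diet that induces metabolic dysfunction-associated steatohepatitis (MASH) from 8 weeks of age for 24 weeks, so the comparison is between mice with diet-induced disease and holds no mouse on standard chow. The transgenes were not analysed here. The AAV8-GFP mice carried the numbers 303, 311, 314 and 315 and the AAV8-AGXT mice the numbers 308, 309, 316 and 319, by which they are named here.

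T cells recognize peptides through an antigen receptor that can only reach the cell surface together with the CD3 chains, which carry its signal into the cell. CD4 and CD8 are the co-receptors that split conventional T cells into helper and cytotoxic lineages. CD8 on most cytotoxic T cells is a pair of the alpha chain, from Cd8a, and the beta chain, from Cd8b1, whereas some dendritic cells carry the alpha chain without the beta chain. Cytotoxic T cells and NK cells kill by releasing granzymes, among them the products of Gzma and Gzmb, from granules that also contain the protein of Nkg7. Klrb1c encodes NK1.1, the antigen by which NK cells of the C57BL/6 strain are usually recognized. CD8 T cells accumulate in the liver in steatohepatitis, and the study sequenced these livers to look for ways in which lowering oxalate through AGXT bears on MASH.

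The livers differed in depth and in how much leukocyte RNA they held. The gene counts of a mouse summed to between 17095433 and 28780140 read pairs, and each marker was scarce at this depth, with between 0 and 194 read pairs per gene and mouse. Hepatocyte markers were abundant in every liver, with a summed level of 54940 to 66760 counts-per-million (CPM) in AAV8-GFP mice and 66050 to 88950 CPM in AAV8-AGXT mice over 9 matched genes. Mouse 308 stood apart from the other AAV8-AGXT mice, with the smallest share of tallied read pairs on genes, 56.3%, the highest hepatocyte sum and the lowest sum of 10 pan-leukocyte genes, 62.8 CPM against 122.3 to 177.2 CPM. It had the lowest level of the 8 mice for 7 of the 10 markers. Mouse 311, an AAV8-GFP mouse, had the highest level for 5 markers. In RNA from whole liver, fewer cells of a type and less RNA per cell cannot be told apart.

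None of the 10 markers passed an adjusted p under 0.05 by the quasi-likelihood test of edgeR between mice treated with AAV8-AGXT and AAV8-GFP, where 4.35% of all tested genes passed in either direction. At an unadjusted p under 0.05, 4 markers were lower in AAV8-AGXT mice (Cd8a, Cd3g, Cd8b1 and Gzmb) and 0 were higher, with 12.6% of all tested genes lower and 13.5% higher by the same measure. The Wald test of DESeq2 called 2 markers lower, Cd8a and Cd3g, with 6.37% of the genes it tested called lower and 6.58% called higher, and limma-voom called 0. For the same 2 markers every AAV8-AGXT mouse lay below every AAV8-GFP mouse, which was the case for 7.63% of all tested genes. The log2 fold changes of the 10 markers had a median of -0.84 and ran from -2.06 to 0.34, beside a median of 0.02 over all tested genes.

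**Figure D1:**
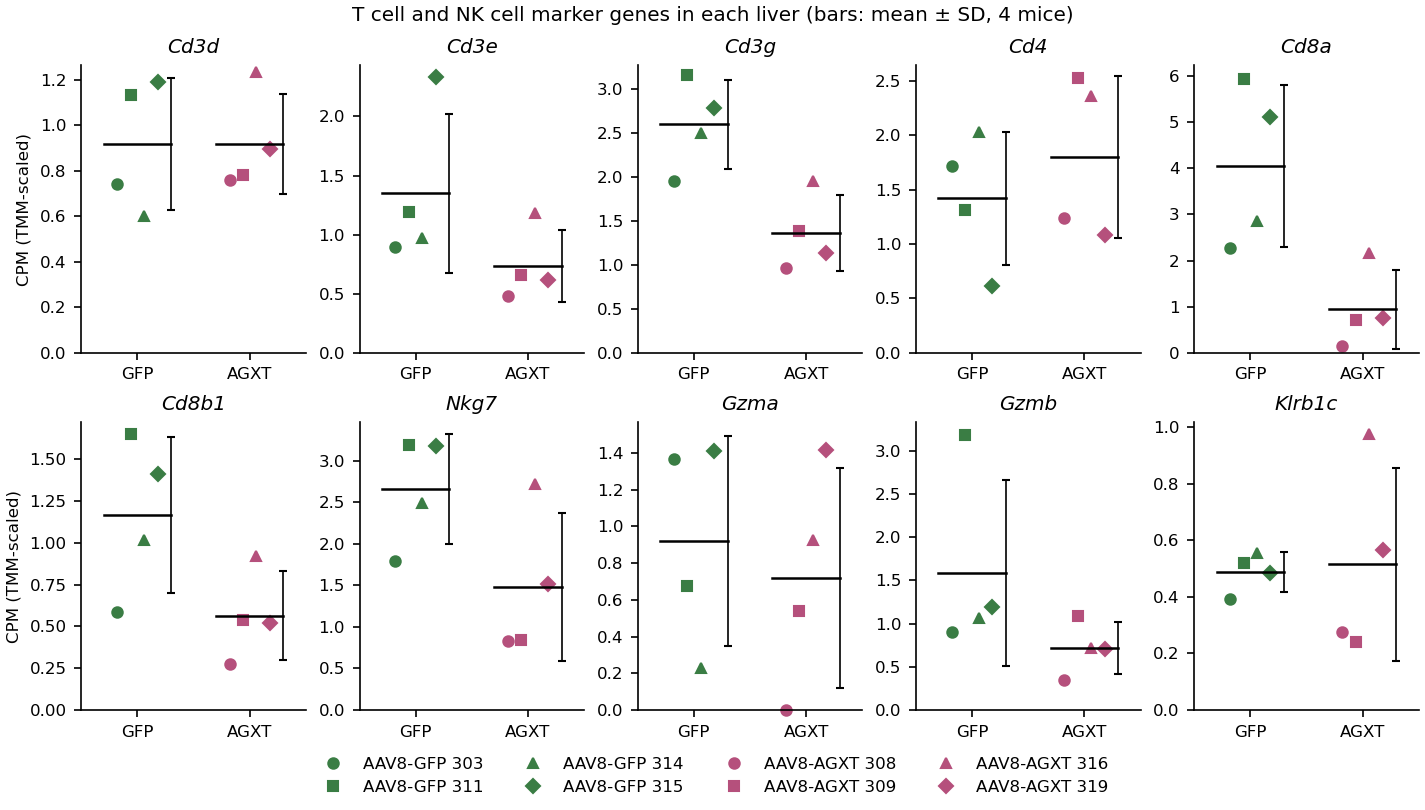
Level of each of the 10 markers in each liver, as TMM-scaled CPM on a linear axis from 0, with AAV8-GFP mice in green, AAV8-AGXT mice in pink, a black bar for the mean and a whisker for the SD of 4 mice. The groups are apart for Cd8a and Cd3g, while Cd3d, Cd4, Gzma and Klrb1c overlap widely.

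Among the CD3 chains, the gamma and epsilon chains had lower means in AAV8-AGXT mice while the means of the delta chain were level, and none of the 3 passed the edgeR test. Cd3g (ENSMUSG00000002033, chromosome 9, 44969572 to 44980431) was measured at 1.95, 3.15, 2.49 and 2.78 CPM in AAV8-GFP mice 303, 311, 314 and 315. In AAV8-AGXT mice 308, 309, 316 and 319 it was measured at 0.967, 1.38, 1.95 and 1.13 CPM. The groups touched without overlapping, since the lowest AAV8-GFP mouse, 303, and the highest AAV8-AGXT mouse, 316, had the same rounded level. Its log2 fold change was -0.93 (95% interval -1.54 to -0.31, standard error 0.28), with an adjusted p of 0.0784 from the quasi-likelihood test of edgeR, and DESeq2 called it (adjusted p = 0.0243). Without mouse 308 the log2 fold change was -0.82 (adjusted p = 0.143 from edgeR) and without mouse 311 it was -0.83 (adjusted p = 0.226 from edgeR).

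Cd3e (ENSMUSG00000032093, chromosome 9, 44998740 to 45009627), whose chain pairs with each of the other two, had 0.898, 1.19, 0.969 and 2.34 CPM in AAV8-GFP mice 303, 311, 314 and 315. The AAV8-AGXT mice 308, 309, 316 and 319 had 0.483, 0.661, 1.18 and 0.613 CPM. Mouse 315 stood highest, mouse 316 lay inside the AAV8-GFP range, and the log2 fold change of -0.85 had a 95% interval from -1.76 to 0.06 (adjusted p = 0.215 from edgeR). Without mouse 315 the log2 fold change was -0.46. Cd3e shares 135 exonic bases with a gene on the opposite strand, Gm48719, and the sources used here do not give the strand setting of the counting.

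Cd3d (ENSMUSG00000032094, chromosome 9, 44981786 to 44987339) had 0.742, 1.13, 0.60 and 1.19 CPM in the AAV8-GFP mice, in the same order. It had 0.759, 0.781, 1.23 and 0.897 CPM in the AAV8-AGXT mice. The means were 0.916 ± 0.290 and 0.918 ± 0.219 CPM (SD of 4 mice per group), with a 95% interval of the log2 fold change from -0.70 to 0.71. The direction of so small a difference turned with the scaling, from 0.00 with TMM to -0.22 with total counts. Cd3g and Cd3d start 1355 bases apart and are transcribed away from each other. Within a mouse, the ratio of Cd3g to Cd3d per length was 1.46, 1.55, 2.31 and 1.30 in AAV8-GFP mice and 0.707, 0.982, 0.879 and 0.701 in AAV8-AGXT mice. Every AAV8-GFP liver thus had more Cd3g than Cd3d per length, and every AAV8-AGXT liver had less. This ratio and those below were chosen after the levels were seen and were not tested.

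Of the co-receptors, Cd8a had the largest difference of the 10 markers and Cd4 had the highest positive log2 fold change. Cd8a (ENSMUSG00000053977, chromosome 6, 71373427 to 71379173) was measured at 2.27, 5.94, 2.86 and 5.12 CPM in AAV8-GFP mice 303, 311, 314 and 315. In AAV8-AGXT mice 308, 309, 316 and 319 it was measured at 0.138, 0.721, 2.16 and 0.755 CPM. The highest AAV8-AGXT mouse, 316, came close to the lowest AAV8-GFP mouse, 303, and the other three lay far below. The mean was 4.04 ± 1.76 CPM under AAV8-GFP and 0.943 ± 0.858 CPM under AAV8-AGXT (SD of 4 mice per group). The log2 fold change was -2.06 (standard error 0.57, 95% interval -3.34 to -0.78), with an adjusted p of 0.0697 from the quasi-likelihood test of edgeR, 0.00521 from DESeq2 and 0.0612 from limma-voom. It was the smallest p-value of the 10 markers, at place 1069 among all tested genes.

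The level in mouse 308 rested on 2 read pairs, for which an exact Poisson interval of 95% runs from 0.242 to 7.23 read pairs, or from 0.0167 to 0.499 CPM. Even the upper end of this interval, which covers counting error only, lies below every AAV8-GFP mouse. Without mouse 308 the log2 fold change of Cd8a was -1.75 (adjusted p = 0.0964 from edgeR), and without mouse 311 it was -1.82 (adjusted p = 0.204 from edgeR). Without mouse 316 it was -2.85 and Cd8a was called (adjusted p = 0.0391 from edgeR).

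Cd8b1 (ENSMUSG00000053044, chromosome 6, 71322788 to 71337494), which lies next to Cd8a on the same strand, had 0.586, 1.65, 1.01 and 1.41 CPM in AAV8-GFP mice 303, 311, 314 and 315. It had 0.276, 0.541, 0.925 and 0.519 CPM in AAV8-AGXT mice 308, 309, 316 and 319. Mouse 316 exceeded mouse 303, so the groups overlapped. Its log2 fold change was -1.02 (95% interval -1.97 to -0.07, adjusted p = 0.163 from edgeR), and without mouse 311 it was -0.80 (adjusted p = 0.398 from edgeR). The ratio of Cd8b1 to Cd8a per length ran from 0.634 to 0.870 among AAV8-GFP mice and from 1.05 to 4.90 among AAV8-AGXT mice, so the alpha chain gene differed by more than the beta chain gene, with counts as low as 2 and 4 in mouse 308.

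Cd4 (ENSMUSG00000023274, chromosome 6, 124864692 to 124888221) had 1.72, 1.32, 2.03 and 0.618 CPM in AAV8-GFP mice 303, 311, 314 and 315. It had 1.24, 2.52, 2.36 and 1.09 CPM in AAV8-AGXT mice 308, 309, 316 and 319. Its lowest value was in an AAV8-GFP mouse, 315, and its highest in an AAV8-AGXT mouse, 309, and the groups overlapped. The log2 fold change was 0.34, with a 95% interval from -0.56 to 1.25 (adjusted p = 0.627 from edgeR), so a rise or a fall of moderate size cannot be told from none. It was 0.11 without mouse 315 and 0.13 without mouse 309, and 0.54 without either 314 or 319. Cd4 is also transcribed in some macrophages and dendritic cells.

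The ratio of Cd8a to Cd4 per length, which does not depend on the scaling between libraries, was 1.46, 5.0, 1.56 and 9.19 in AAV8-GFP mice and 0.123, 0.317, 1.01 and 0.771 in AAV8-AGXT mice. The lowest AAV8-GFP ratio lay above the highest AAV8-AGXT ratio. Mouse 315 had the highest ratio through a low Cd4 level as well as a high Cd8a level. The ratio of Cd8b1 to Cd4 overlapped, at 0.927 to 6.21 in AAV8-GFP and 0.583 to 1.30 in AAV8-AGXT mice.

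**Figure D2:**
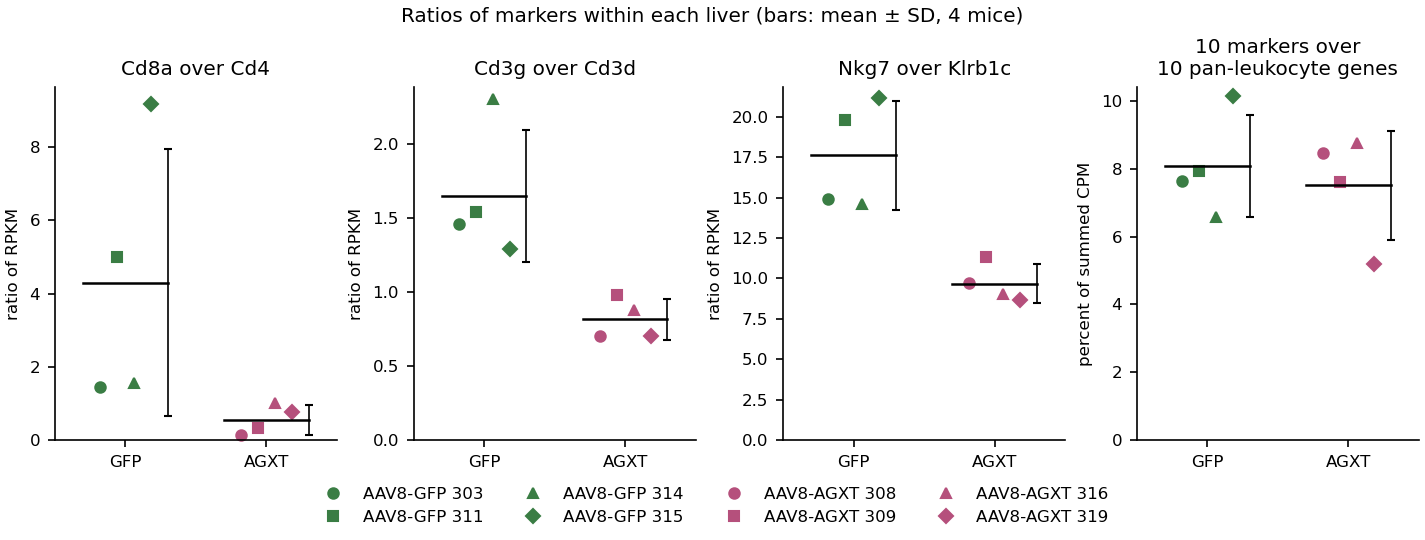
Ratios within each liver, with mice of both groups as points, means as black bars and SDs as whiskers: Cd8a over Cd4, Cd3g over Cd3d and Nkg7 over Klrb1c as ratios of CPM per kilobase of exon (RPKM), and the 10 markers as a percentage of the summed CPM of 10 pan-leukocyte genes. The first 3 ratios are apart between the groups, and the last overlaps, at 8.08 ± 1.51% in AAV8-GFP and 7.51 ± 1.62% in AAV8-AGXT mice (SD of 4 mice per group).

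The promoters of Cd8a, Cd3g, Cd3d and Gzmb are shown because Cd8a and Cd3g were the markers whose groups did not overlap, Cd3d is the neighbour of Cd3g whose group means were level, and Gzmb is the granule gene with the largest difference. The sequences are those of RefSeq on GRCm38.p6, from 250 bases before to 50 bases after the start site, written 5′ to 3′ on the strand of the gene. The RefSeq start is the GENCODE start for Cd8a, Cd3g and Cd3d, but lies 74 bases from it for Gzmb. Among the markers not shown, it lies 16 bases away for Cd3e, 65 for Nkg7 and 574 for Klrb1c. Capitals mark the letters of 3 motif families searched on both strands. RUNX factors, which control the choice between the CD4 and CD8 lineages, were searched as TGTGGT or TGCGGT, ETS factors as AGGAAG or CGGAAG, and E proteins, which act early in T cell development, as CAGCTG or CAGGTG.
Cd8a promoter, chr6:71373177-71373476, plus strand: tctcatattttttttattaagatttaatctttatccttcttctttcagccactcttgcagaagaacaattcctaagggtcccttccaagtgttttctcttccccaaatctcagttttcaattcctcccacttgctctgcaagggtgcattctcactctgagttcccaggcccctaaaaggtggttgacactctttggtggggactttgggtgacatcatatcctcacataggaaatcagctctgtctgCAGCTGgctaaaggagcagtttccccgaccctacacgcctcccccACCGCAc
Cd3g promoter, chr9:44980382-44980681, minus strand: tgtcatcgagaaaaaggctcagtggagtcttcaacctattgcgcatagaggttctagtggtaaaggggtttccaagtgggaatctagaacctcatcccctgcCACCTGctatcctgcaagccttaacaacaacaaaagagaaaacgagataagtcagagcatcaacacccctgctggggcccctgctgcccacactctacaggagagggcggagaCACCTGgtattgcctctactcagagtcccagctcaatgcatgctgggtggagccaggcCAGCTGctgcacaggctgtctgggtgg
Cd3d promoter, chr9:44981536-44981835, plus strand: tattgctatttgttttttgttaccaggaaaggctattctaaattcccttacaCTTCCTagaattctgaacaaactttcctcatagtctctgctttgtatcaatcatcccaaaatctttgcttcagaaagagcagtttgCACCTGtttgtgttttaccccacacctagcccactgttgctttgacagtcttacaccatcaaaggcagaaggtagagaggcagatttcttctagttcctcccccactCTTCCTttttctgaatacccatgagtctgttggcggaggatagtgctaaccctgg
Gzmb promoter, chr14:56262285-56262584, minus strand: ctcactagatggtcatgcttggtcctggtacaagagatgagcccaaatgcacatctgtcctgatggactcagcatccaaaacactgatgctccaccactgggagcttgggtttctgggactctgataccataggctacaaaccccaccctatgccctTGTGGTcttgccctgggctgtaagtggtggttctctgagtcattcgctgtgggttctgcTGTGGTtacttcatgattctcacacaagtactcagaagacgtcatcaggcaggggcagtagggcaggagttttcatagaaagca
Of 10 markers, 8 had a promoter in the RefSeq table and Cd4 and Cd8b1 had none there. RUNX letters were in 5 of the 8 (Cd8a, Gzma, Gzmb, Klrb1c and Nkg7), and in 22.4% of all 32851 promoters of this length. ETS letters were in 4 of the 8 (Cd3d, Cd3e, Klrb1c and Nkg7), and in 46.5% of all promoters. E-box letters were in 5 of the 8 (Cd3d, Cd3e, Cd3g, Cd8a and Gzma), and in 32.9% of all promoters. The Gzmb window holds 2 RUNX matches and no other match, and the Cd3g window holds 3 E-box matches. These matches describe the letters of the windows and do not show that a factor binds there.

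Nkg7, Gzma and Gzmb, the cytotoxic granule genes, were on average less abundant in AAV8-AGXT mice, but for each of them the groups overlapped and none passed the edgeR test. Nkg7 (ENSMUSG00000004612, chromosome 7, 43437073 to 43438249) was the most abundant marker per length in both groups, at 2.91 ± 0.724 RPKM in AAV8-GFP and 1.61 ± 0.974 RPKM in AAV8-AGXT mice (SD of 4 mice per group). It had 1.80, 3.18, 2.49 and 3.17 CPM in AAV8-GFP mice 303, 311, 314 and 315, and 0.83, 0.841, 2.72 and 1.51 CPM in AAV8-AGXT mice 308, 309, 316 and 319. Mouse 316 lay within the AAV8-GFP range and the other three AAV8-AGXT mice lay below it. The log2 fold change was -0.83 (95% interval -1.70 to 0.04, adjusted p = 0.207 from edgeR), and without mouse 316 it was -1.30 (adjusted p = 0.0685 from edgeR).

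Gzmb (ENSMUSG00000015437, chromosome 14, 56258838 to 56262260), encoding granzyme B, had 0.898, 3.18, 1.06 and 1.19 CPM in AAV8-GFP mice 303, 311, 314 and 315. It had 0.345, 1.08, 0.719 and 0.708 CPM in AAV8-AGXT mice 308, 309, 316 and 319. Mouse 311 was far above all others, and mouse 309 overlapped with the AAV8-GFP mice. The log2 fold change was -1.15 (95% interval -2.24 to -0.07, adjusted p = 0.166 from edgeR) and rested in large part on mouse 311, without which it was -0.55 (adjusted p = 0.484 from edgeR).

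Gzma (ENSMUSG00000023132, chromosome 13, 113093825 to 113100981), encoding granzyme A, ranged from 0.231 to 1.41 CPM in AAV8-GFP mice and from 0 to 1.42 CPM in AAV8-AGXT mice. No read pair was counted in mouse 308, for which the exact Poisson interval of 95% reaches up to 3.69 read pairs, or 0.255 CPM. Its log2 fold change of -0.29 had the widest 95% interval of the 10 markers, from -1.94 to 1.35 (adjusted p = 0.835 from edgeR), and it turned to 0.07 without mouse 308.

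Klrb1c (ENSMUSG00000030325, chromosome 6, 128778485 to 128789215), the NK cell marker, was the scarcest of the 10 per length in both groups, at 0.165 ± 0.0238 and 0.174 ± 0.115 RPKM (SD of 4 mice per group). It ranged from 0.391 to 0.554 CPM in AAV8-GFP mice and from 0.240 to 0.976 CPM in AAV8-AGXT mice, on 4 to 19 read pairs per mouse. The AAV8-AGXT mice enclosed the AAV8-GFP range on both sides, with 308 and 309 below it and 316 and 319 above it. The log2 fold change was 0.12, with a 95% interval from -0.88 to 1.11 (adjusted p = 0.893 from edgeR), and it was -0.11 with total counts, -0.05 with limma-voom, -0.38 without mouse 316, 0.29 without mouse 308 and 0.33 without mouse 309. Klrb1c has close paralogs and shares 413 exonic bases with Gm44511 on the same strand, so its counts are uncertain. Relative to Klrb1c, Nkg7 per length was 14.6 to 21.2 times as abundant in AAV8-GFP mice and 8.64 to 11.3 times in AAV8-AGXT mice, without overlap.

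**Figure D3:**
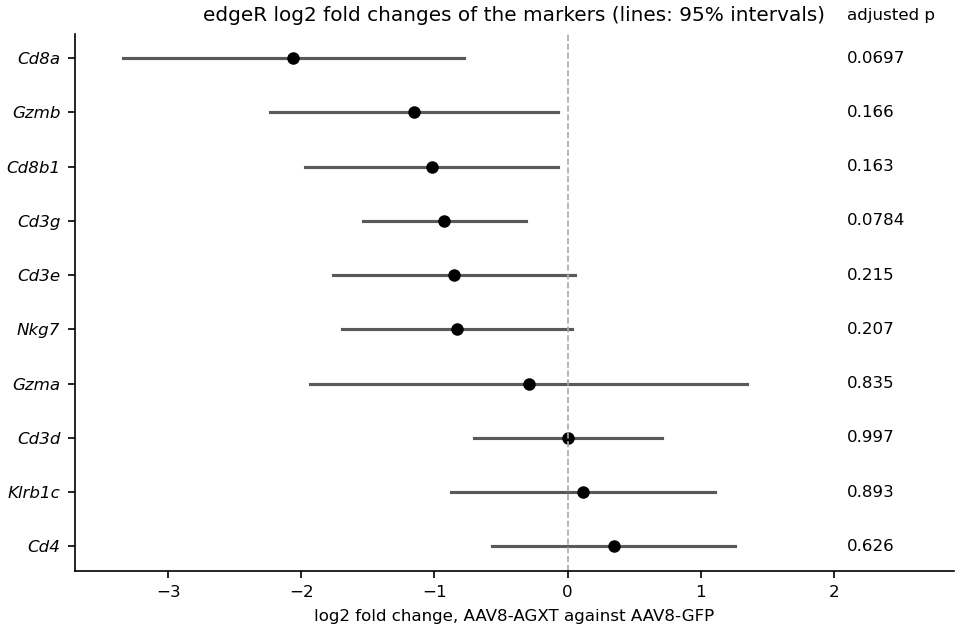
Log2 fold change of each marker between AAV8-AGXT and AAV8-GFP mice as points, with 95% intervals as lines and the edgeR adjusted p at the right. The intervals of Cd8a, Gzmb, Cd8b1 and Cd3g lie below 0, and no adjusted p is under 0.05.

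Ordered by RPKM in AAV8-GFP mice, the markers ran from Nkg7 at 2.91 through Cd8a at 1.11, Gzmb at 1.10, Gzma at 0.915, Cd3g at 0.793, Cd8b1 at 0.786, Cd3d at 0.505, Cd4 at 0.352 and Cd3e at 0.331 to Klrb1c at 0.165. Neighbours in this order differed by less than the larger of their SDs over 4 mice, apart from Nkg7 and Cd8a and, by a narrow margin, Cd3e and Klrb1c. In AAV8-AGXT mice Nkg7 remained first and Klrb1c last, Cd8a was at place 8 instead of 2 and Cd3d at place 3 instead of 7, and no neighbours differed by more than the larger SD. Exon lengths were taken over all transcripts of a gene, which lowers the RPKM of genes with long minor transcripts.

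The log2 fold changes of 6 markers kept a negative sign in every alternative fit that tested them (Cd8a, Cd8b1, Cd3e, Cd3g, Nkg7 and Gzmb), and that of Cd4 stayed positive. Leaving out mouse 316, the AAV8-AGXT mouse with the highest summed level of the markers, made the differences larger for Cd8a, Cd8b1, Cd3e, Cd3g and Nkg7. No marker other than Cd8a was called in a fit that left out 1 mouse.

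**Figure D4:**
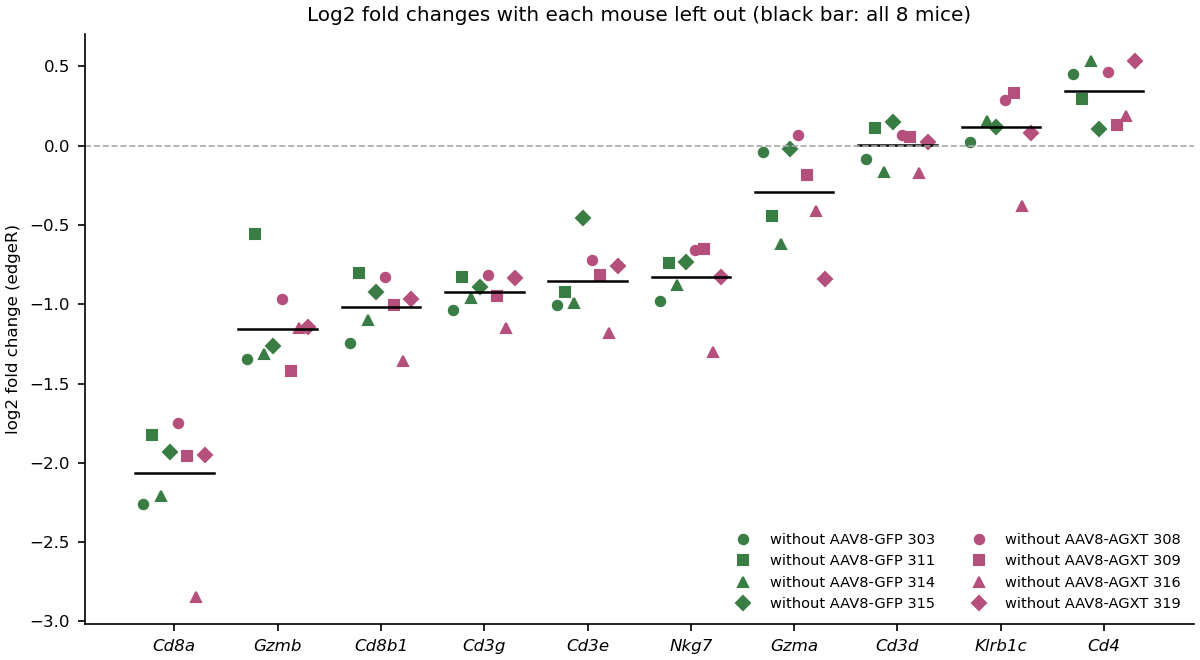
Log2 fold change of each marker with each mouse left out, with a point for each omitted mouse and a black bar for all 8 mice. Cd8a spans -2.85 to -1.75, Gzmb spans -1.42 to -0.55, and the points of Gzma, Cd3d and Klrb1c lie on both sides of 0.

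Summed over the 10 markers, the level was 12.6, 21.95, 14.3 and 19.7 CPM in AAV8-GFP mice 303, 311, 314 and 315, and 5.32, 9.31, 15.2 and 9.20 CPM in AAV8-AGXT mice 308, 309, 316 and 319. Mouse 316 lay within the AAV8-GFP range and the other three AAV8-AGXT mice lay below it. The log2 ratio of the group means was -0.81, and it was -0.61 without mouse 308 and -0.67 without mouse 311. The 10 pan-leukocyte genes, which include Ptprc (CD45), had a log2 ratio of -0.67 between the group means of their sum, which ranged from 165.2 to 276.3 CPM in AAV8-GFP and from 62.8 to 177.2 CPM in AAV8-AGXT mice. As a percentage of that sum, the 10 markers made up 7.63, 7.94, 6.57 and 10.2% in AAV8-GFP mice and 8.46, 7.61, 8.78 and 5.19% in AAV8-AGXT mice. The groups overlapped on this scale, and mouse 308 was not low on it. Per length and relative to Ptprc, Cd8a did not overlap, at 0.577 to 1.01 in AAV8-GFP and 0.0978 to 0.492 in AAV8-AGXT mice, whereas Cd3g did, at 0.533 to 0.595 and 0.299 to 0.761, and so did Cd3e, at 0.174 to 0.359 and 0.13 to 0.305.

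Most markers of other leukocytes also had negative log2 fold changes, and their part in the differences was not tested. Of 12 dendritic cell markers, which bear on Cd8a and Cd4, all 12 were tested and had negative log2 fold changes with a median of -0.72. Their sum ranged from 936.2 to 1300 CPM in AAV8-GFP and from 379.2 to 767.8 CPM in AAV8-AGXT mice. The antigen presentation genes Cd74 and H2-Ab1, at means of 538.1 and 231.5 CPM, made up most of its AAV8-GFP mean of 1110 CPM. The range of this sum therefore does not speak for the scarcer markers of the list. Of 14 B cell and plasma cell markers, 10 were negative, with a median of -0.41 and sums of 55.6 to 65.0 and 32.7 to 56.1 CPM. Of 15 macrophage and monocyte markers, 9 were negative, with a median of -0.53 and sums of 584.8 to 988.8 and 275.3 to 876.2 CPM. Of 9 neutrophil markers, 4 were tested and all 4 were negative, with a median of -0.84 and sums of 21.3 to 33.9 and 7.04 to 22.8 CPM. EdgeR called 0 genes of these lists and of the pan-leukocyte list, as did limma-voom. At an unadjusted p under 0.05, 4 dendritic cell, 1 B cell, 4 macrophage, 1 neutrophil and 2 pan-leukocyte genes were lower. By the same measure 3 macrophage genes were higher, beside 12.6% of all tested genes lower and 13.5% higher. DESeq2 called 3, 1, 3, 1 and 2 lower in the same order of lists, and 1 macrophage gene higher. Of all genes it tested, DESeq2 called 6.37% lower and 6.58% higher. Ly6g, which defines neutrophils, had 0 read pairs in 7 of the 8 mice, and no marker of these lists was at 0 in all 8. The 9 matched hepatocyte markers were positive throughout, with a median of 0.37. EdgeR called only Cps1 among them, a urea cycle enzyme, beside 4.35% of all tested genes called in either direction. At an unadjusted p under 0.05, 5 of these 9 were higher, beside 13.5% of all tested genes. DESeq2 called 3 of them higher, beside 6.58% of the genes it tested. The 5 tested red blood cell genes, of 7 listed, were also positive throughout, with a median of 0.57 and none called by edgeR or limma-voom, 2 higher at an unadjusted p under 0.05 (13.5% of all tested genes) and 1 called higher by DESeq2 (6.58% of those it tested).

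Beyond the 10 markers, 112 further genes of T cells and NK cells were listed in 6 groups, and 73 of them were tested. EdgeR called 3 lower and 2 higher, or 6.85% of those tested beside 4.35% of all tested genes. Of the 73, 58 had negative log2 fold changes and the median was -0.54, while a gene scarce in one group could pass the filter through the other. The counts of called genes rested on single mice, since the lower count was between 0 and 5 and the higher count between 0 and 3 when 1 mouse was left out, with 0 lower genes without mouse 308, 311, 314 or 319.

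The T cell receptor chains and the genes of its proximal signalling were mostly lower on average in AAV8-AGXT mice. Of 20 genes, 18 were tested, 17 had negative log2 fold changes and the median was -0.78. EdgeR and limma-voom called none, with 10 lower and 1 higher at an unadjusted p under 0.05, beside 12.6 and 13.5% of all tested genes. DESeq2 called 6 lower and 1 higher, beside 6.37 and 6.58% of the genes it tested. Trac, the constant region of the receptor alpha chain, was at 2.62 ± 1.01 CPM under AAV8-GFP and 0.921 ± 0.351 CPM under AAV8-AGXT (SD of 4 mice per group, log2 fold change -1.48, adjusted p = 0.0583 from edgeR). Trbc1, a constant region of the beta chain, was at 2.80 ± 0.997 and 0.935 ± 0.451 CPM (SD of 4 mice per group, log2 fold change -1.56, adjusted p = 0.0641 from edgeR), and its split from the near-identical Trbc2 is uncertain. Trbc2 itself overlapped between the groups, at 2.39 ± 0.452 and 1.53 ± 0.636 CPM (SD of 4 mice per group, log2 fold change -0.63, adjusted p = 0.248 from edgeR). For Trac and Trbc1, the AAV8-AGXT mice all lay under the AAV8-GFP range. Zap70, the kinase that binds the phosphorylated CD3 chains, went the other way, at 8.12 ± 1.55 and 15.2 ± 4.69 CPM (SD of 4 mice per group, log2 fold change 0.90, adjusted p = 0.0658 from edgeR), with overlapping groups. DESeq2 called it higher (adjusted p = 0.00952), while edgeR called it in none of the fits that left out 1 mouse except the one without mouse 309. Its highest level, 19.4 CPM, was in mouse 308, which had the lowest sum of the 10 markers.

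Among 22 T cell subset and state genes, 14 were tested, with a median of -0.45. EdgeR called Tox, a nuclear factor known from exhausted CD8 T cells, which rose from 3.34 ± 0.528 to 8.88 ± 2.70 CPM (SD of 4 mice per group, log2 fold change 1.41, adjusted p = 0.0279 from edgeR). Every AAV8-AGXT mouse, from 6.49 to 12.2 CPM, exceeded every AAV8-GFP mouse, from 2.57 to 3.75 CPM. The highest level was in mouse 308, which had the lowest sum of the 10 markers. The call was lost without mouse 311, 314 or 319, and Tox overlaps an exon of Gm11802 on the opposite strand. Of 12 gamma-delta and innate-like T cell genes, 6 were tested, with a median of 0.02, and edgeR, limma-voom and DESeq2 called 0. At an unadjusted p under 0.05, 1 was lower, beside 12.6% of all tested genes. This was Tcrg-C2 (log2 fold change -1.04, adjusted p = 0.150 from edgeR). Cxcr6, a chemokine receptor of liver-resident lymphocytes, had a log2 fold change of -0.61 (adjusted p = 0.416 from edgeR), and Il17a had no read pair in any mouse.

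Of 20 NK cell receptor genes besides Klrb1c, 7 passed the filter and all 7 had negative log2 fold changes, with a median of -0.47. The receptor genes under the filter went both ways. Their ratios of the AAV8-AGXT to the AAV8-GFP mean ran from 0.237 to 6.20, and both extremes rested on at most 6 read pairs per mouse. The shared direction therefore covers the tested genes only. EdgeR, limma-voom and DESeq2 called 0 of them. At an unadjusted p under 0.05, 1 was lower, beside 12.6% of all tested genes. This was Klrb1b, a paralog of Klrb1c that shares 599 exonic bases with Gm44511, at 0.686 ± 0.148 and 0.347 ± 0.123 CPM (SD of 4 mice per group, log2 fold change -0.97, adjusted p = 0.118 from edgeR). Next by p-value came Fcgr3 at a log2 fold change of -0.54 and Cd244a at -0.67, and the former is also abundant in macrophages.

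The cytotoxic effector list held 16 genes, of which 12 were tested with a median of -0.85. EdgeR called 2 lower, beside 4.35% of all tested genes called in either direction. At an unadjusted p under 0.05, 7 were lower and 0 higher, beside 12.6 and 13.5% of all tested genes. DESeq2 called 4 lower, beside 6.37% of the genes it tested. Ccl4, a chemokine released by activated T cells, NK cells and macrophages, fell from 2.06 ± 0.694 to 0.581 ± 0.295 CPM (SD of 4 mice per group, log2 fold change -1.79, adjusted p = 0.0427 from edgeR). Srgn, the proteoglycan core that packs granzymes in granules and is found in most leukocytes, fell from 15.1 ± 1.96 to 9.02 ± 1.74 CPM (SD of 4 mice per group, log2 fold change -0.74, adjusted p = 0.0426 from edgeR). No AAV8-AGXT mouse reached the AAV8-GFP range for either gene. With 1 mouse left out, Ccl4 held only without 303 or 316 and Srgn only without 316, and the adjusted p reached 0.149 for Ccl4 and 0.148 for Srgn, both without mouse 311 (edgeR).

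Of 22 cytokine and chemokine genes acting on T cells and NK cells, 16 were tested, with a median of -0.35. EdgeR called 1 lower and 1 higher, beside 4.35% of all tested genes called in either direction. At an unadjusted p under 0.05, 4 were lower and 4 higher, beside 12.6 and 13.5% of all tested genes. DESeq2 called 2 lower and 1 higher, beside 6.37 and 6.58% of the genes it tested. Cxcl16, the ligand that draws CXCR6-bearing lymphocytes to the liver, fell from 33.9 ± 6.87 to 17.1 ± 4.09 CPM (SD of 4 mice per group, log2 fold change -0.99, adjusted p = 0.0366 from edgeR). It shares 552 exonic bases with Zmynd15 on the opposite strand. Il15ra, which presents interleukin-15 to NK cells and CD8 T cells, rose from 42.2 ± 5.21 to 71.8 ± 14.2 CPM (SD of 4 mice per group, log2 fold change 0.76, adjusted p = 0.0351 from edgeR). Both were apart between the groups in all mice. With 1 mouse left out, both held only without 309, 315 or 316. Il15ra was highest in mouse 308, at 89.0 CPM. Of the 16 tested genes, 10 had negative and 6 positive log2 fold changes. Il15 itself, at means of 2.77 and 1.89 CPM, had a log2 fold change of -0.54 (adjusted p = 0.237 from edgeR). The receptor genes Il2rb and Il2rg were at -0.25 and -0.79 (adjusted p = 0.627 and 0.251 from edgeR).

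**Figure D5:**
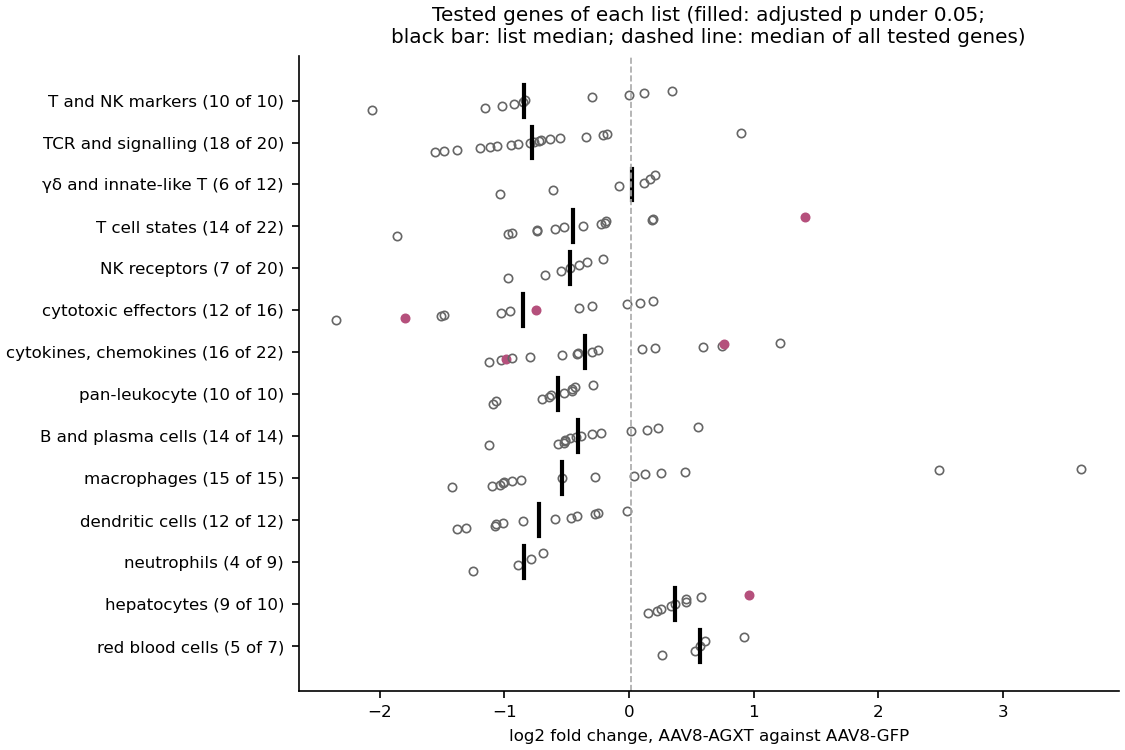
Log2 fold change of every tested gene in each list as a point, with the number tested of the number listed beside the name, filled points for genes with an edgeR adjusted p under 0.05, black bars for list medians and a dashed line for the median of all tested genes, 0.02. The T cell and NK cell marker list has its median at -0.84, and the hepatocyte and red blood cell lists lie to the right of 0.

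The genes outside the list whose profile over the 8 mice was closest to the mean profile of the 10 markers were Treml2, Nlrc4, Mx1, Vmac and Tmem106a. After each profile of log2 CPM was set to a mean of 0 and an SD of 1, their mean absolute difference from the marker profile was 0.122, 0.152, 0.185, 0.197 and 0.206 SD, against a median of 1.11 SD over all other tested genes. None was called between the groups by edgeR, with adjusted p from 0.117 to 0.371. Of the markers themselves, Cd8a was closest to their mean at 0.194 SD, followed by Nkg7 at 0.255 SD, and Cd4 was furthest at 1.09 SD, about as far as the median gene.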

How the data were processed

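Liver RNA of 8 mice was sequenced as stranded mRNA libraries, 1 per mouse. According to the methods and the processing notes, the authors used Trimmomatic 0.35 for trimming, HISAT2 2.1.0.13 for alignment to GRCm38 and HTSeq for counting pairs per gene. The deposited values are raw counts, and the strand setting of the counting is not stated in the sources used here. HTSeq's tallies of uncounted pairs, 30.9 to 43.7% of all tallied pairs per mouse, were kept out of library sizes and tests.

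Groups were taken from the sample labels. Of 52636 genes, 52489 were matched to GENCODE M21 (GRCm38). The 2 groups were compared with edgeR 4.0.16 under R 4.3.3 (filterByExpr, TMM factors, quasi-likelihood test, Benjamini-Hochberg adjustment over 15248 genes, called at an adjusted p under 0.05), and the code was tested on simulated data. At 17095433 to 28780140 counted pairs per mouse, the common biological coefficient of variation was 23.3%. CPM were scaled by TMM, log2 CPM used a prior count of 2 and log2 fold changes one of 0.125. RPKM divide CPM by the exon length in kilobases. Intervals of 95% use the standard error and degrees of freedom of the edgeR test. Alternatives were DESeq2 1.42.0, limma-voom (limma 3.58.1), 3 other scalings, 2 other filters, robust estimation and each mouse left out. The authors used DESeq2.

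Named genes were all 10 markers and, in each other list, every called gene or at most the 3 with the smallest p-value, together with the 5 genes nearest in profile; 1 gene that the rule names is not reported here. The listed hepatocyte gene Tf was not matched by symbol. The markers, lists and rules were chosen with earlier results of these data known. Nothing in the labels places mice in litters or cages, and p-values set the difference between the groups against the spread between these 8 mice within their groups.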

Additional observations from a re-analysis of the deposited data

Results flagged for a closer look

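Of 134 groups of 4 mice examined (each marker, each list's sum, each named gene and each ratio, on a log2 scale), 9 held a mouse whose gap to the next exceeded Dixon's 95% limit, a limit that chance passes in about 1 in 20 groups. No marker of the 10 was among them. Of the 9, 6 were low values of AAV8-AGXT mouse 308, as log2 CPM, at -1.44 for Trbc1 (others 0.18 to 0.46), -1.74 for Cd244a (others -0.53 to -0.30), 2.08 for Cd53 (others 3.569 to 3.755), 0.69 for Blnk (others 2.13 to 2.40), 5.27 for H2-Ab1 (others 6.95 to 7.13) and 6.52 for Cd74 (others 8.12 to 8.40). AAV8-GFP mouse 315 was low for Ighd, at 0.67 against 1.52 to 1.68, and high for Alas2, at 5.74 against 4.89 to 4.98. AAV8-GFP mouse 303 was low in the log2 sum of cytokines and chemokines acting on T cells and NK cells, at 7.22 against 7.524 to 7.545.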

How the results depend on the processing

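No paired analysis was possible because the groups share no animal number. The count of markers called lower, 0, was 1 without a filter on low counts and 2 with DESeq2, and 0 to 1 with each mouse left out. Requiring at least 10 counts in every mouse left 4 markers to test. The related T cell and NK cell genes called lower, 3, were 10 with total counts, 8 without a filter and 12 with DESeq2, and 0 to 5 with a mouse left out, while the 2 called higher were 0 to 3. Over all tested genes, 290 lower and 374 higher became 857 and 144 with total counts, which moved the median log2 fold change of all genes by -0.24 and the share of calls that were higher from 56.3 to 14.4%. The share was 46.0% with upper-quartile factors, the counts were 1033 lower and 1068 higher with DESeq2, and 0 to 325 lower and 2 to 379 higher with a mouse left out, fewest without mouse 311. Cd3d turned to -0.0105 with DESeq2's size factors, -0.0541 with upper-quartile factors, -0.22 with total counts, -0.0182 without a filter, -0.0345 with at least 10 counts in every mouse and -0.00748 with DESeq2, and spanned -0.17 to 0.15 with a mouse left out. Klrb1c turned to -0.11 with total counts and -0.0483 with limma-voom and spanned -0.38 to 0.33 with a mouse left out, and Gzma spanned -0.84 to 0.0661. The cause of these turns was not tested. The log2 ratio of the summed markers was -1.02 with total counts and -1.11 to -0.61 with a mouse left out. Counts of at most 194 read pairs per marker limit these values.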

Other observations

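The macrophage list split by gene. The scavenger receptor gene Marco had means of 3.71 ± 2.43 CPM under AAV8-GFP and 46.2 ± 73.4 CPM under AAV8-AGXT (SD of 4 mice per group, log2 fold change 3.63, adjusted p = 0.0801 from edgeR), and Timd4, a marker of resident Kupffer cells, had 0.881 ± 0.421 and 5.0 ± 5.77 CPM (SD of 4 mice per group, log2 fold change 2.49, adjusted p = 0.0736 from edgeR). Trem2, a gene of lipid-associated macrophages, had 33.9 ± 10.8 and 12.6 ± 8.85 CPM (SD of 4 mice per group, log2 fold change -1.42, adjusted p = 0.0852 from edgeR). None passed in edgeR, and the means of Marco and Timd4 in AAV8-AGXT mice rested on mouse 319, at 156.2 and 13.6 CPM against at most 12.4 and 3.04 CPM in the other three.

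Among genes of antigen presentation, H2-Ab1 had 231.5 ± 45.1 CPM under AAV8-GFP and 109.7 ± 48.0 CPM under AAV8-AGXT, and Cd74 had 538.1 ± 107.1 and 256.5 ± 112.4 CPM (SD of 4 mice per group). The groups did not overlap for either gene, and the adjusted p was 0.0902 and 0.0933 from edgeR. Itgax, encoding CD11c, had 25.7 ± 6.43 and 10.3 ± 6.11 CPM (SD of 4 mice per group, adjusted p = 0.103 from edgeR), also without overlap. Blnk, a B cell adaptor, had 8.77 ± 1.87 and 4.0 ± 1.70 CPM, and Csf3r, the receptor that drives neutrophil formation, had 15.8 ± 2.50 and 8.48 ± 3.6 CPM (SD of 4 mice per group, adjusted p = 0.0741 and 0.0833 from edgeR).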
